A study of Caenorhabditis elegans with 6 samples.

Results

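The SRA superfamily is a group of nematode chemoreceptor genes with 4 families, *sra*, *srab*, *srb* and *sre*. Its members were taken as every gene in the deposited expression table whose name is one of these family names followed by a number, which gave 81 of the 19793 genes, 20 *sra*, 14 *srab*, 10 *srb* and 37 *sre* genes. The values come from RNA sequencing of neural cells isolated from first-stage (L1) larvae of *Caenorhabditis elegans*, in 3 biological replicates each of strain BB78 (*adr-2 (-)*) and strain HAH57 (*adr-2 (-)*;ADR-1 dsRBD1, dsRBD1 mutant below). Both strains carry the *adr-2* allele *ok735*, an *unc-119* genomic rescue, and RFP and GFP reporters driven by the *rab-3* promoter, the RFP one with the *C35E7.6* 3′ UTR and the GFP one with the *unc-54* 3′ UTR. The dsRBD1 mutant also carries a 3X FLAG-tagged ADR-1 with substitutions of conserved lysines in its first double-stranded RNA binding domain, which the study uses as an ADR-1 that cannot bind RNA. ADR-1 and ADR-2 are the worm members of the ADAR family, of which ADR-2 is the editing enzyme. The comparison therefore asks which transcripts differ in neural cells when ADR-1 RNA binding is lost and *adr-2* is absent from both sides. The tag and any other difference between the strains go with this loss and cannot be told apart from it. The comparison involves no animals with wild-type *adr-2*.

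Chemoreceptors of this kind are seven-transmembrane G protein-coupled receptors that sit mainly in the cilia of chemosensory neurons. A worm has a large set of them, and single receptors are often made by 1 or a few neuron classes, so that in a preparation of all neural cells each transcript comes from a very small share of the cells. The receptors act through G alpha proteins, guanylyl cyclases and the TAX-2/TAX-4 or OSM-9/OCR-2 channels, and most have no known ligand. In bulk RNA, fewer cells of a type and less RNA per cell cannot be told apart, and this holds for every level below.

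The 81 genes were spread unevenly over the genome. On the WBcel235 assembly, which WS275 uses, 40 lay on chromosome II, 20 on V, 10 on IV, 7 on I, 3 on X and 1 on III, and 47 of the 81 lay within 10 kb of another member. The annotation has 76 of them as protein coding, with a longest coding length of 945 to 1191 bases, and 5 as pseudogenes (*srab-19*, *srab-27*, *srb-2*, *srb-7* and *sre-25*). Of 124 annotated genes with such names, 48 had no row in the table under that identity and were not analysed here, among them *sra-1* and *sra-13*. Every gene in the table had a read in at least 1 library.

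The deposited value of a gene is its number of uniquely aligned reads divided by a size factor for the library, called the normalized value here. All values were whole multiples of the value of 1 read, so the reads could be recovered. The libraries held 5686686 to 18382009 reads on genes. The library *adr-2 (-)* replicate 3 stood apart, with 55.4% of its reads on ribosomal RNA (*rrn*) genes against 13.5% to 22.3% in the other libraries, 2534884 other reads and 10532 genes with a read, and 1 read there is worth a normalized value of 3.25 against 0.602 to 0.930 elsewhere. All 10 pan-neuronal markers and at least 9 of 12 ciliated neuron markers had reads in every library. Neural cells were not the only source of RNA, since 8 body wall muscle genes summed to 211634 to 350439 in the 6 libraries. This was above the 24122 to 32996 of the pan-neuronal markers. Of these muscle genes, *unc-54* alone had 65079 to 143716, and it may include reads from the *unc-54* 3′ UTR of the GFP reporter, which was not tested. The muscle gene *myo-3* had 19608 to 31206. The allele *ok735* deletes part of *adr-2*, and the counts do not show where in a gene the reads lie, so *adr-2* does not check the labels. It had 95, 79 and 44 reads in the *adr-2 (-)* libraries and 2, 30 and 4 in those of the dsRBD1 mutant, and *adr-1* was not analysed here.

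Between 16 and 43 of the 81 receptor genes were detected in a library, taking 1 read as detection. In *adr-2 (-)* cells, replicates 1, 2 and 3 had reads on 34, 42 and 16 of the genes. In dsRBD1 mutant cells the corresponding numbers were 18, 39 and 43. The range within each genotype spanned most of the range over all 6 libraries, and the genotypes overlapped. The low libraries, *adr-2 (-)* replicate 3 and dsRBD1 mutant replicate 1, also had the fewest genes of any kind with a read, at 53.2% and 60.5% of the table against 74.7% to 80.3% in the rest. Sequencing depth went with only part of the range. Thinned to the 2534884 non-ribosomal reads of the shallowest library, the expected numbers were 30.7, 38.5 and 16 genes for *adr-2 (-)* and 17, 33.7 and 36.8 for the dsRBD1 mutant. With dsRBD1 mutant replicate 1 having 10281436 non-ribosomal reads, its 18 genes were few for its depth.

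**Figure D1:**
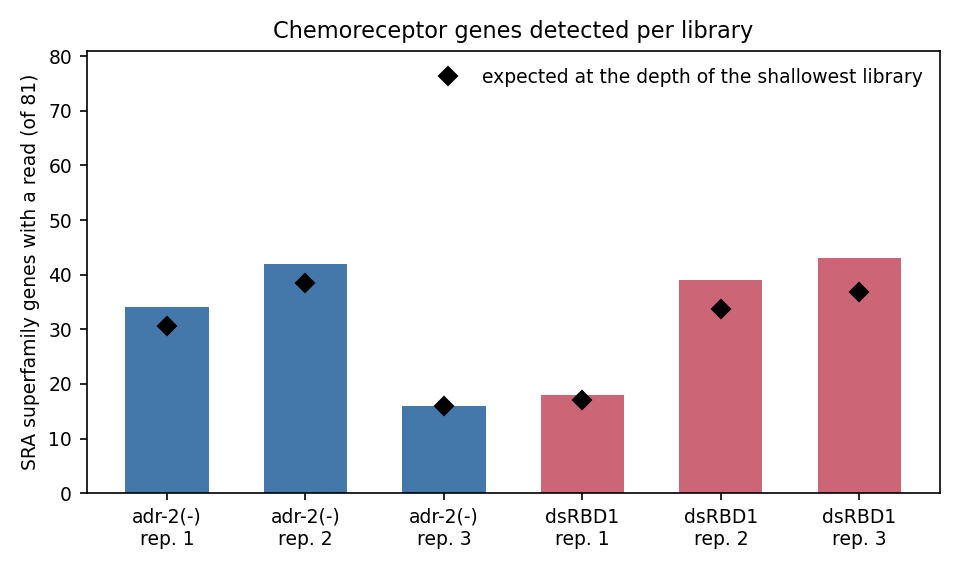
Number of the 81 SRA superfamily genes with at least 1 read in each of the 6 libraries (bars, *adr-2 (-)* in blue and dsRBD1 mutant in red). Diamonds give the number expected after thinning each library to 2534884 non-ribosomal reads, and the lowest bars, at 16 and 18, belong to different genotypes.

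A receptor gene that was detected was rarely at the edge of detection. Of the 192 detections over all libraries and members, 179 rested on 3 or more reads and 13 on 1 or 2. The median number of reads of a detected member was 18.5, 20 and 35 in the *adr-2 (-)* libraries and 41.5, 21 and 15 in the dsRBD1 mutant libraries. A count of 0 allows up to 3 reads, which is 5.28e-05% of all reads for *adr-2 (-)* replicate 3 and 1.63e-05% to 2.52e-05% for the rest. These floors cover counting error only, since copies made by PCR are not separate molecules.

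The genes with reads differed from library to library. Of the 81 genes, 29 (35.8%) had reads in a single library, against 18.6% of all genes in the table, and 3 (3.70%) had reads in all 6, against 45.2% of all genes. The 3 were *srab-14*, *sra-10* and *sre-13*. Among the 29 genes found in 1 library the reads ranged from 1 to 54, with a median of 16. The highest of them was *sra-7*, known from reporter studies in the ASK chemosensory neurons, with 54 reads in dsRBD1 mutant replicate 2 and none elsewhere. It was followed by *sre-38* with 47 reads in dsRBD1 mutant replicate 1, *sre-20* with 44 in dsRBD1 mutant replicate 2, and *srb-3* and the pseudogene *srab-27* with 43 and 33 in *adr-2 (-)* replicate 3. Genes with many reads overall were seldom found in 1 library elsewhere in the table. With 30 or more reads in all, 5 of 48 members were found in 1 library, against 2.69% of 15558 genes. That group has no upper limit, and no member had more than 775 reads in all, so levels there were not matched. At lower totals the members were close to the table. With 1 to 9 reads in all, 7 of 8 members were found in 1 library, against 89.5% of 1522 genes. With 10 to 29 reads it was 17 of 25 members, against 70.3% of 2713 genes. The other chemoreceptor groups had larger shares of genes in 1 library, 51.8% of 226 SRG superfamily genes, 50% of 354 STR superfamily genes and 56.8% of 176 genes in other classes. What sets apart the libraries that had reads on a given receptor was not tested.

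**Figure D2:**
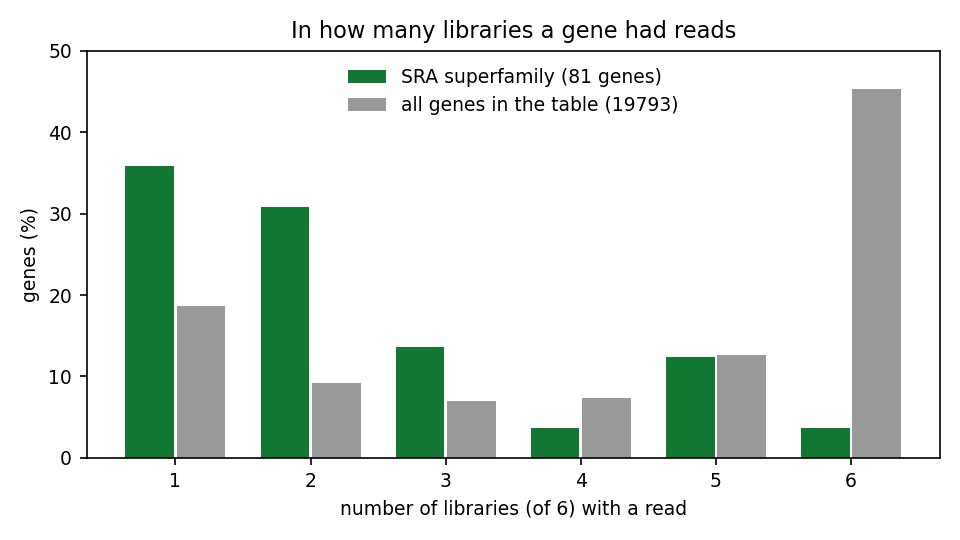
Share of genes (percent) with a read in exactly 1 to 6 of the 6 libraries, for the 81 SRA superfamily genes (green) and all 19793 genes of the table (grey). The receptors peak at 1 library (35.8%) and the whole table at 6 (45.2%).

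Taken by genotype, 61 members had a read in at least 1 *adr-2 (-)* library, 64 in at least 1 dsRBD1 mutant library and 44 in both. The 17 found in *adr-2 (-)* cells only and the 20 in dsRBD1 mutant cells only were mostly genes of a single library (13 and 16). The whole table had such genes in both directions too. Reads in 1, 2 or 3 *adr-2 (-)* libraries and no dsRBD1 mutant library were held by 1870, 369 and 45 genes. In the reverse direction the numbers were 1819, 405 and 50. Pairs of libraries of the same genotype shared 9 to 22 of the members, and pairs of different genotype 6 to 26. For example, *adr-2 (-)* replicates 1 and 2 shared 20 members, 58.8% of the first and 47.6% of the second, and *adr-2 (-)* replicate 2 shared 26 with dsRBD1 mutant replicate 3, 61.9% and 60.5%. The gene *sra-30* was the single member with reads in all 3 *adr-2 (-)* libraries and in no dsRBD1 mutant library, a pattern held by 45 genes (0.227%) of the table. No member had the reverse pattern, which was held by 50 genes of the table. Both patterns were too rare for these numbers to show a direction among the members.

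Several receptors whose neurons are known from reporter strains were thinly covered. The ASH, ASI and PVQ receptor *sra-6* had 1 read in *adr-2 (-)* replicate 2 and 9 in dsRBD1 mutant replicate 3. The ASK receptor *sra-9*, about 10.7 kb from *sra-7*, had 14 reads in dsRBD1 mutant replicate 3 alone. The ASH, ADL and phasmid receptor *srb-6* had 19 reads in dsRBD1 mutant replicate 2 alone. The ADL receptor *sre-1* had 18 and 30 reads in dsRBD1 mutant replicates 2 and 3 and none in the other 4 libraries. Unlike these, *sra-11* marks interneurons, among them AIY, and had 4 and 13 reads in *adr-2 (-)* replicates 1 and 2 and 9 in dsRBD1 mutant replicate 3. None of these genes reached the level at which genotypes were tested. In contrast, *sra-10*, which reporter studies also place, did reach it. It had reads in all 6 libraries and a mean normalized value of 72.4, with 74.9% of the summed values in *adr-2 (-)* replicate 3.

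Expression was compared between genotypes for the 21 members with a mean normalized value of at least 10, 3 *sra*, 6 *srab*, 5 *srb* and 7 *sre* genes. The test was limma on log2(normalized value + 1) with Benjamini-Hochberg adjustment over all 13705 genes above that level. A gene was called when its adjusted p was under 0.05 and its log2 fold change exceeded 0.5 in either direction. Because of the added 1, low genes show smaller fold changes. The other 60 members had mean values from 0.119 to 9.98 and 1 to 90 reads in all, 27 of them in a single library.

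Levels per kilobase of coding length were compared for the 76 protein coding members, since the pseudogenes have no coding length. The highest on average over the 6 libraries were *sre-4* (88.9 normalized reads per kb), *srb-13* (80.0), *sra-10* (71.8), *srab-14* (65.3) and *sra-37* (55.3). That order did not hold within libraries. The means of *srb-13* and *sra-10* came mainly from *adr-2 (-)* replicate 3, which held 80.6% and 74.9% of their summed values, whereas *sre-4* had no read there. In reads, the top gene was *sre-4* in *adr-2 (-)* replicates 1 and 2 with 132 and 210 and in dsRBD1 mutant replicate 2 with 196, *srb-13* in *adr-2 (-)* replicate 3 with 123, *sra-37* in dsRBD1 mutant replicate 1 with 157, and *sre-14* in dsRBD1 mutant replicate 3 with 120. The 3 leading members took 27.8% to 46.8% of the receptor reads of a library.

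**Figure D3:**
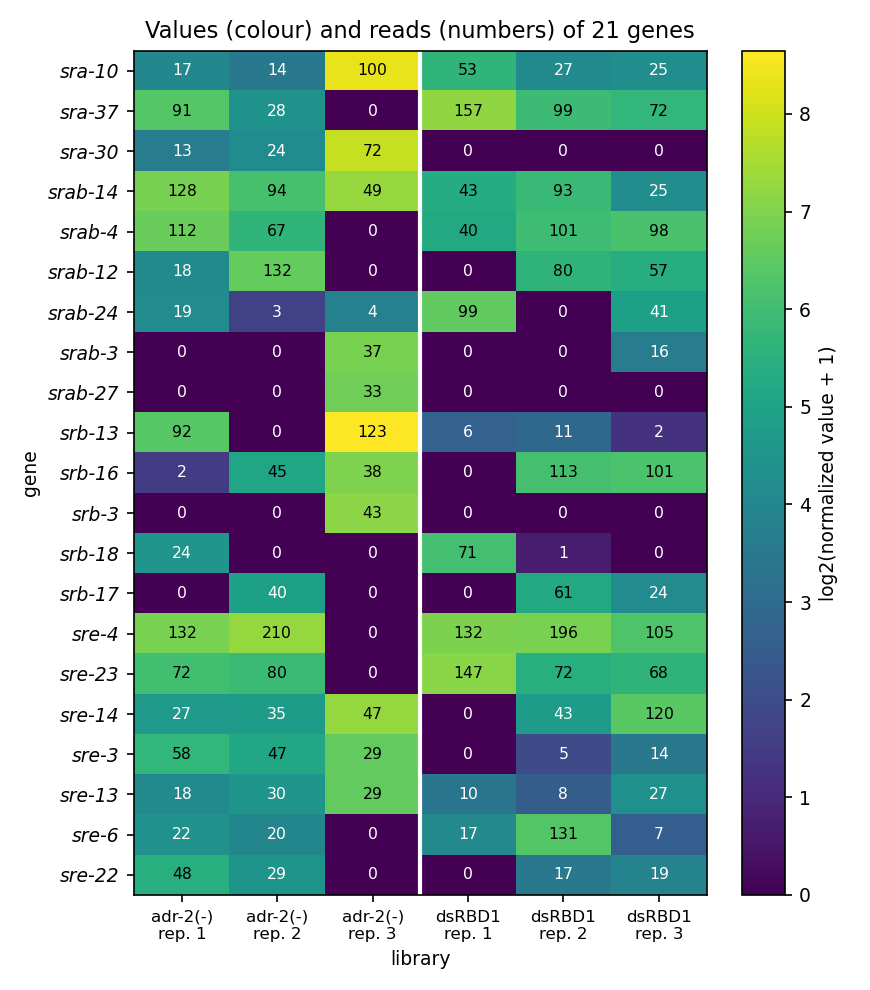
The 21 SRA superfamily genes with a mean normalized value of at least 10 (rows, by family) in the 6 libraries (columns, a white line between genotypes). Colour is log2(normalized value + 1) and the printed numbers are reads. Cells with 0 reads stand beside well covered cells in the same genotype, and the *sra-30* row is empty in all 3 dsRBD1 mutant libraries.

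With limma and edgeR no receptor gene was called between dsRBD1 mutant and *adr-2 (-)* neural cells, whereas DESeq2 called 2. Limma called 0 of the 21 members and 0 of all 13705 genes (0%). At an unadjusted p-value under 0.05 there was 1 member, *sra-30*, beside 872 genes (6.36%). This gene reached the level tested only through *adr-2 (-)* replicate 3, a library of the genotype in which it is high. The quasi-likelihood test of edgeR on the recovered reads also called 0 genes, with *sra-30* and *srb-13* at an unadjusted p-value under 0.05, beside 6.55% of all genes. The study used DESeq2, whose Wald test on the recovered reads called 317 genes here. It called 2 of the 23 members to which it gave an adjusted p-value, *sra-30* and *srb-13*, both lower in the dsRBD1 mutant, beside 1.98% of all genes in that direction, and no member higher. The 3 dsRBD1 mutant libraries lay apart from the 3 *adr-2 (-)* libraries for 3 of the 21 members (*sra-30*, *sre-3* and *srab-14*, all lower in the dsRBD1 mutant), beside 13.7% of all genes tested. For a single gene an exact permutation test of 3 libraries against 3 gives no p-value under 0.1, and each of the 3 genes had that value.

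The receptor with the widest separation was *sra-30* (WBGene00005056, chromosome IV, 15192299 to 15203023, minus strand), an *sra* family gene that the study also lists. It had 13, 24 and 72 reads in *adr-2 (-)* cells and 0, 0 and 0 in dsRBD1 mutant cells. The normalized values of *adr-2 (-)* cells were 11.7, 17.6 and 234, so that replicate 3 held 88.9% of the sum. Set against the 3 reads per library that a count of 0 allows, its mean was at least 39.1-fold lower in the dsRBD1 mutant, and without *adr-2 (-)* replicate 3 at least 6.53-fold. The fitted log2 fold change was −5.25 ± 2.01 (SE, limma, n = 3 per genotype), with an unadjusted p of 0.0230 and an adjusted p of 0.741, and its size depends on the added 1 since one side is at 0. DESeq2 gave an adjusted p of 0.000492, and without *adr-2 (-)* replicate 3 it gave 0.618, where the reads were 13 and 24 against 0. Over all alternatives the adjusted p ranged from 0.000492 to 0.917, and the direction was kept in each. The body of *sra-30* also holds an annotated pseudogene on each strand, neither with shared exon bases. The one on the same strand was not analysed here. The one on the other strand (WBGene00012745) had 19 reads, all in *adr-2 (-)* replicate 2.

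The gene with the next largest fold change was *sre-3* (chromosome II, 7385742 to 7389139), with 58, 47 and 29 reads in *adr-2 (-)* cells and 0, 5 and 14 in dsRBD1 mutant cells. Its normalized values were 60.4 ± 30.7 and 4.34 ± 5.14 (mean ± SD, n = 3), and the genotypes did not overlap. The log2 fold change was −3.998 ± 1.87 (SE, limma), with an unadjusted p of 0.0538 and an adjusted p of 0.741. With DESeq2 the adjusted p of *sre-3* was 0.199. Leaving out any 1 library left its log2 fold change between −4.82 and −3.09 with limma, and over all alternatives its adjusted p was 0.107 to 0.917. The other separated gene, *srab-14* (chromosome II, 7497284 to 7499490), had reads in every library. It had 128, 94 and 49 reads against 43, 93 and 25, which in normalized values is 114.6 ± 45.2 against 37.9 ± 19.1. The separation of *srab-14* was narrow, its nearest libraries being at 69.0 and 55.98, and its log2 fold change of −1.63 ± 1.08 (limma, adjusted p = 0.741) was not called. It shares 490 exon bases with *spi-1* on the other strand. The reads were stranded, but whether these libraries were counted by strand is not given in the sources used here, so reads from the pair may be mixed.

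The receptor *srb-13*, linked to the guidance of sperm, had 92, 0 and 123 reads in *adr-2 (-)* cells and 6, 11 and 2 in dsRBD1 mutant cells. The *adr-2 (-)* libraries were thus the highest and the lowest, and the genotypes overlapped. Its log2 fold change was −2.70 ± 2.35 (SE, limma, adjusted p = 0.763) and −5.14 with DESeq2 (adjusted p = 0.0496). The DESeq2 call was lost when any library other than *adr-2 (-)* replicate 2 was left out (adjusted p = 0.104 to 0.778), and over all alternatives the adjusted p ran from 0.000108 to 0.933. The sperm protein gene *msp-45* lies inside *srb-13* on the same strand with no shared exon bases and was not analysed here. Beside this, 8 sperm genes summed to 28.6 to 364 in *adr-2 (-)* cells, highest in replicate 3, and to 39.4 to 56.6 in dsRBD1 mutant cells. They did not move as 1 set. In *adr-2 (-)* replicate 3 only *msp-3*, *msp-56*, *msp-78* and *gsp-3* had reads. The log2 fold change of *spe-11* was 2.48 (limma, adjusted p = 0.761), in the other direction. The part of the sperm genes in the *srb-13* result was not tested.

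The neighbour *srb-16*, also linked to sperm guidance and 4.51 kb from *srb-13*, did not follow it. It had 2, 45 and 38 reads in *adr-2 (-)* cells and 0, 113 and 101 in dsRBD1 mutant cells, with full overlap. In the same stretch of chromosome II, *srb-3* had 43 reads in *adr-2 (-)* replicate 3 alone, *srb-2* had 19 in dsRBD1 mutant replicate 2 alone, and *srb-5* had 1 read in dsRBD1 mutant replicate 3. The last 3 genes had their reads in 3 different libraries, and in each of these *srb-13* and *srb-16* had reads too.

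**Figure D4:**
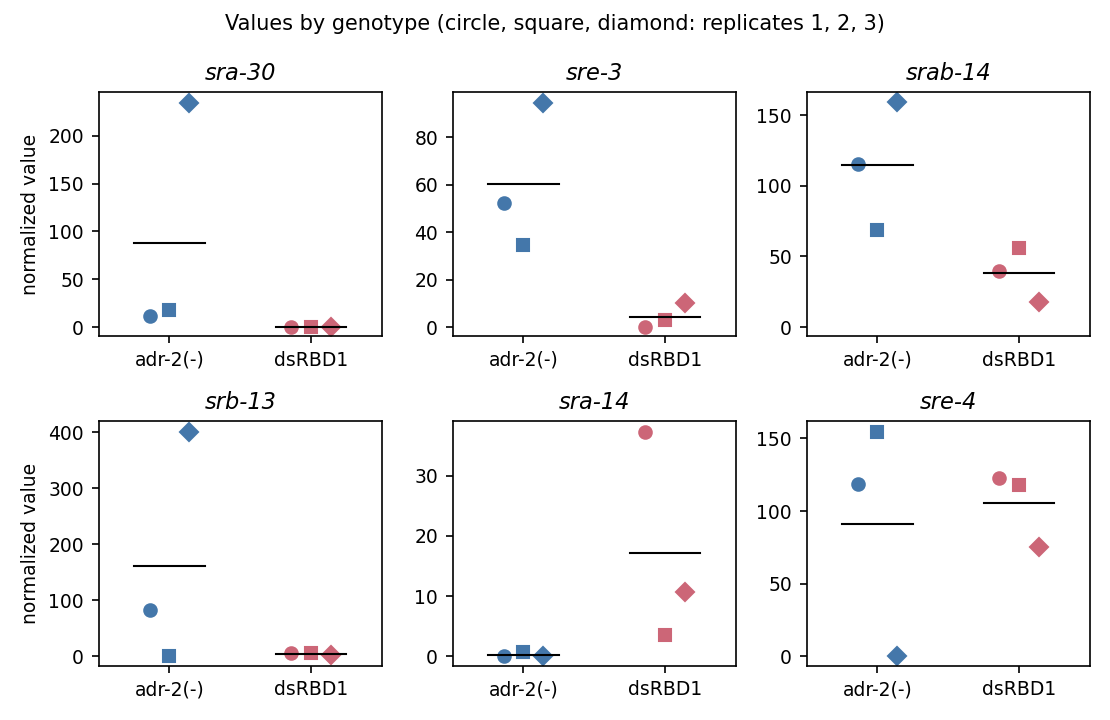
Normalized values of 6 receptor genes in the 3 libraries of each genotype (points, marker shape by replicate number) with the mean of each genotype (line, no error bar drawn). The plotted values of the genotypes do not overlap for *sra-30*, *sre-3*, *srab-14* and *sra-14*, and they overlap for *srb-13* and *sre-4*. For *sra-14* this does not hold if the 0 of *adr-2 (-)* replicate 3 stands for 3 reads, a value of 9.76.

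In the other direction *sra-14* was separated by its values, and at a mean normalized value of 8.71 it lay below the level tested with limma. It had 0, 1 and 0 reads in *adr-2 (-)* cells and 40, 6 and 15 in dsRBD1 mutant cells, and DESeq2 gave it an adjusted p of 0.421. The separation does not hold at the floor of 3 reads that a count of 0 allows. In *adr-2 (-)* replicate 3 that floor is a value of 9.76, above the 3.61 of *sra-14* in dsRBD1 mutant replicate 2. Of the members tested, *sra-37* on chromosome X had the largest positive fold change. It had 91, 28 and 0 reads against 157, 99 and 72, and its log2 fold change of 2.68 ± 1.83 (SE, limma, adjusted p = 0.741) was not called. Without *adr-2 (-)* replicate 3 it was 0.88. The gene *sre-4* had 132, 210 and 0 reads in *adr-2 (-)* cells and 132, 196 and 105 in dsRBD1 mutant cells. Its log2 fold change was 1.97 ± 1.78 with all libraries and −0.39 ± 0.47 without *adr-2 (-)* replicate 3 (SE, limma), so its sign changed without that library. It shares 249 exon bases with *T13F2.6* on the other strand.

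What *adr-2 (-)* replicate 3 held went with the sign of most fold changes. This is in part built in, because its value is 1 of the 3 averaged for *adr-2 (-)*. Of the 21 members tested, 9 had no read there, and 8 of these had a log2 fold change above 0. The other 12 had a read there, and 11 of these were below 0. The whole table leaned the same way, with 79.8% of 3457 genes without a read there above 0 and 45.9% of 10248 genes with one. This library had the highest value of 11 of the 21 members. The same share of all genes tested was not computed, and 1 read there is worth 3.25 against 0.602 to 0.930 elsewhere. Of the members, 4 (*sra-30*, *srb-3*, *srab-3* and *srab-27*) had a mean under 10 in the other 5 libraries, so they reached the level tested only through it. In all, 9 members were above 0 and 12 below, with a median of −0.62 beside 0.09 for all genes tested. Without *adr-2 (-)* replicate 3 the median was −0.0013, with 8 above 0, 11 below 0 and 2 at 0. With limma, the direction of 9 of the 21 genes was kept with each library left out in turn, and that of 12 was not.

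**Figure D5:**
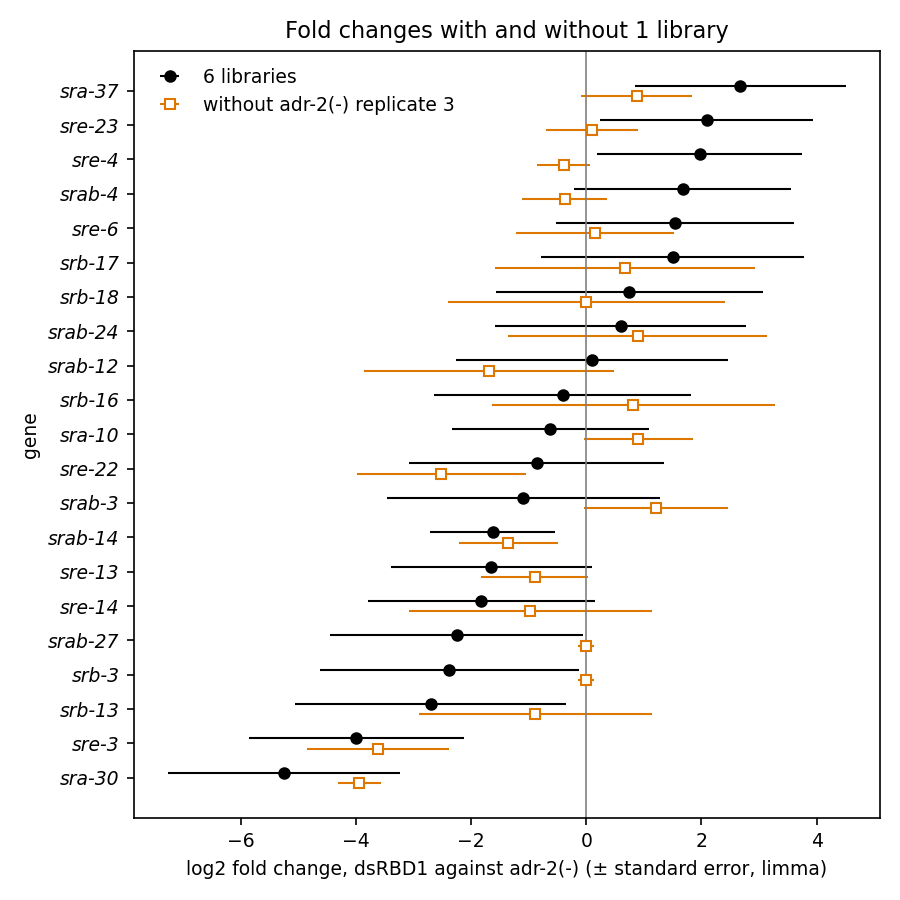
Log2 fold change (dsRBD1 mutant against *adr-2 (-)*, limma, ± SE) of the 21 members tested, with all 6 libraries (filled circles) and without *adr-2 (-)* replicate 3 (open squares). Genes such as *sre-4* and *sra-10* cross 0 when the library is left out, and *sra-30* and *sre-3* stay below −3.

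For some members that library held all or most of the reads. The pseudogene *srab-27* and *srb-3* had reads there alone, and their log2 fold changes of −2.25 and −2.38 became 0 without it. The gene *sra-10*, which reporter studies place in interneurons among other cells, had 17, 14 and 100 reads against 53, 27 and 25, and its log2 fold change went from −0.62 to 0.90. It shares 55 exon bases with *ptr-8* on the other strand. The gene *srab-3* had 37 reads there and 16 in dsRBD1 mutant replicate 3, and its log2 fold change went from −1.09 to 1.21.

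The remaining members tested overlapped between genotypes, and their limma adjusted p-values ran from 0.764 to 0.995. Reads below are given for *adr-2 (-)* replicates 1 to 3 and then for the dsRBD1 mutant. The gene *sre-23* had 72, 80 and 0 reads against 147, 72 and 68. The gene *srab-4* had 112, 67 and 0 against 40, 101 and 98. Both had at least 40 reads in each of the 5 libraries other than *adr-2 (-)* replicate 3, which no other member tested did except *sre-4*. The genes *srab-12* and *srab-24* were more scattered. The first had 18, 132 and 0 reads against 0, 80 and 57. The second had 19, 3 and 4 against 99, 0 and 41. In a further pair most reads came from 1 dsRBD1 mutant library. These were *sre-6*, with 22, 20 and 0 reads against 17, 131 and 7, and *srb-18*, with 24, 0 and 0 against 71, 1 and 0. The *sre-14* gene had 27, 35 and 47 reads against 0, 43 and 120, so the dsRBD1 mutant libraries held both its lowest and its highest count. The *sre-13* gene, one of the 3 found in every library, had 18, 30 and 29 against 10, 8 and 27. The *sre-22* gene had 48, 29 and 0 reads against 0, 17 and 19, and *srb-17* had 0, 40 and 0 against 0, 61 and 24. These last genes each had a library without reads in both genotypes.

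The signalling genes downstream of the receptors were given beside them. All 26 genes of chemosensory transduction listed, G protein subunits, cyclases, channels and regulators, had a mean normalized value of at least 10, and 19 to 26 of them had reads in a library. Reads were found in every library for 19 of the 26, and 7 had none in *adr-2 (-)* replicate 3, among them the channel genes *tax-2*, *tax-4* and *ocr-2*. Limma called 0 of the 26 (0% of all genes), with a median log2 fold change of 0.40. One of them, *eat-16*, an RGS protein that turns off G alpha signalling, had an unadjusted p under 0.05. It had normalized values of 1297, 1221 and 1207 in *adr-2 (-)* cells and 1968, 1838 and 2137 in dsRBD1 mutant cells, without overlap. Its log2 fold change was 0.67, with a limma adjusted p of 0.703. The 12 ciliated neuron genes summed to 2788 to 3071 in *adr-2 (-)* cells and 2904 to 4063 in dsRBD1 mutant cells, which overlapped.

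Limma called 0 genes in each list of markers of other cells, as it did over all 13705 genes. DESeq2 called 11 of 16 germline and early embryo genes lower in the dsRBD1 mutant. It also called 3 of 9 intestinal, 1 of 8 sperm and 1 of 8 epidermis genes lower, and none of any list higher. Of all genes, DESeq2 called 1.98% lower. At an unadjusted limma p under 0.05 the lists differed. The 16 germline and early embryo genes listed summed to 2309 to 11033 in *adr-2 (-)* cells, highest in replicate 3, and to 924 to 1484 in dsRBD1 mutant cells, with 13 of 16 lower at that p and all 16 with reads in each library. Of 9 intestinal genes 3 were lower, the vitellogenins *vit-2*, *vit-5* and *vit-6*. Of the glial genes 2 were higher, *fig-1* and *lit-1*, and of the pharyngeal genes 1, *myo-1*, whereas none of the body wall muscle and epidermis genes had such a p. By normalized value, 11 of the 21 receptors tested were highest in *adr-2 (-)* replicate 3. Each read is worth more in that library, and the same share of all genes tested was not computed. The part of other cells in these results was not tested.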

How the data were processed

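Poly(A) RNA was sequenced as 75 bp single-end stranded reads. The authors aligned them to WS275 with STAR 2.7.8a keeping unique alignments, counted them with featureCounts and divided each library by its DESeq2 size factor, and deposited this signal for 19793 genes. The deposited log2 fold changes and p-values come from the authors' own comparison and were not used. All values (100%) were whole multiples of the value of 1 read within 0.01 read, which returned reads of 5686686 to 18382009 per library. The 49 rows without a gene name (at most 0.0185% of reads) were not treated as members.

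Genotypes came from the labels. Genes whose values averaged at least 10 were tested with limma 3.58.1 (R 4.3.3) on log2(value + 1) with a mean-variance trend. The tests of edgeR 4.0.16 and DESeq2 1.42.0 on recovered reads were alternatives, as were a pseudocount of 0.5, filters at 1 and 50 or none, other scalings, a replicate block, an adjusted p of 0.1 and each library left out. DESeq2 with each library left out, and the bound of *sra-30* without *adr-2 (-)* replicate 3, were chosen after seeing the data. The code was tested on simulated data. Python 3.11.15 and scipy 1.17.1 were used otherwise.

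Members and gene lists were chosen with earlier results of these data known. The genes named are those with known cells or function, those averaging at least 10, those whose genotypes did not overlap with at least 10 reads, those called by any test, and *sra-30*. Coding length is the longest annotated coding sequence (Ensembl 115, WBcel235), since no protein table was at hand, and 19784 gene identifiers were found there.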

Additional observations from a re-analysis of the deposited data

How the results depend on the processing

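Limma called 0 of the 21 members under every alternative tried with it. With DESeq2, 2 members were called with all libraries, 1 with the replicate block, and 0 to 2 with a library left out. The number of members at an unadjusted p under 0.05, 1 with limma, was 0 under a filter at 50, 2 with edgeR, 6 with DESeq2, 3 with DESeq2 and the replicate block, and 0 to 6 with a library left out. Over all genes, limma called 3 without a filter and 10 under a filter at 1, DESeq2 called 317, and leaving out a library gave 0 to 11 with limma and 120 to 519 with DESeq2. The median log2 fold change of the members was 0.53 under a filter at 50, which kept 8 of them, 0.10 with no filter or a filter at 1, and −1.26 to 0.29 with a library left out. The fold change of *srab-12* (0.10) was −0.35 with edgeR, −0.36 with DESeq2 and −0.90 with DESeq2 and the replicate block.

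The replicate numbers were not taken as pairs. The deviations of libraries with the same number correlated at −0.0913, 0.04 and −0.064 over 13705 genes, and not every library correlated best with its own number (*adr-2 (-)* replicate 1 and dsRBD1 mutant replicate 3 reached 0.145). A replicate block gave 21 genes called with limma, none of them a member, and 251 with DESeq2.

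With a library left out, over limma and DESeq2 together, the log2 fold change of these members took both signs: *sre-4* ran from −0.39 to 3.25, *sra-10* from −2.73 to 1.11, *srab-4* from −0.41 to 2.96, *sre-14* from −3.18 to 0.58, *srb-16* from −1.92 to 1.64, *srab-12* from −1.69 to 1.93, *srab-24* from −0.76 to 2.51, *sre-6* from −0.17 to 2.41, *srab-3* from −8.17 to 4.69, *sre-22* from −2.52 to 0.36, *srb-18* from −4.49 to 6.29 and *srb-17* from −0.19 to 5.83. The members *srb-3* and *srab-27* ended at 0 at the upper end. The log2 fold change of *sra-30* stayed between −9.86 and −3.94 and that of *srb-13* between −5.73 and −0.89. Over all alternatives, 7 of the 21 members kept their direction. The numbers of members detected per library stayed within 1.5 times at 3 or more reads and at the depth of the shallowest library. Where the cause of a change is not in the setting itself, it was not tested. Of the 81 members, 60 averaged under 10 and were not tested with limma.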
